A study of Mus musculus with 46 samples.

Results

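The replication-dependent histone genes encode the canonical histones H1, H2A, H2B, H3 and H4. They were taken here as the protein-coding genes of the mouse GENCODE vM1 annotation on mm9 whose symbols start with Hist1h, Hist2h, Hist3h or Hist4h, with no measured value used in the choice. The rule gave 67 of 22367 protein-coding genes: 6 for H1, 19 for H2A, 18 for H2B, 11 for H3 and 13 for H4. ChIP-Seq peaks of H3.3, a variant of histone H3, and of 2 methylations of H3, the trimethylated lysines 4 (H3K4me3) and 36 (H3K36me3), were read from 30 peak lists, each from 1 library, and a gene was counted as bound where a peak overlapped it or the 1 kb on either side.

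The cells started from mouse embryonic fibroblasts (MEFs) that carried an IRES-EGFP cassette after the stop codon of Oct4 (Pou5f1), made from mid-gestation embryos. In the reprogramming series they were infected with pMXs retroviruses for Oct4, Sox2, Klf4 and c-Myc (OSKM) and followed as untreated fibroblasts (D0), whole cultures on day 3 (D3), cells without the fibroblast surface marker Thy-1 on days 6 and 9 (D6T-, D9T-), cells with the stem cell marker SSEA-1 on days 12 and 16 (D12S+, D16S+), and finished induced pluripotent stem cells (iPSCs). The opposite fractions of the same days (D6T+, D9T+, D12S-, D16S-) were cells that had not moved along the route, and ESD3, a mouse embryonic stem cell line, was the reference for the end state. H3.3 was measured in all 12 of these, and H3K4me3 and H3K36me3 in the first 7. In the transdifferentiation series, fibroblasts cleared of cells with hematopoietic surface markers received Scl, Lmo2, Runx1 and Bmi1 and were grown with inactivated OP9 stromal cells; H3.3 was measured before the factors (MEF), on day 4 (D4) and in the sorted cKit+ and cKit- cells. Whether OP9 cells were left in the sorted fractions is not given in the sources used here.

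Replication-dependent histone genes are switched on together as DNA synthesis begins, so that new nucleosomes can be packed onto the copied DNA. They are short, mostly lack introns, lie in clusters, and make mRNAs that end in a conserved stem-loop instead of a poly(A) tail; the coactivator NPAT gathers at their promoters in the histone locus body, and the stem-loop binding protein SLBP and the U7 small nuclear ribonucleoprotein act at their 3' ends. H3.1 and H3.2, made from these genes, are laid down behind the replication fork, whereas H3.3 comes from separate genes, H3f3a and H3f3b, and is placed outside replication by the HIRA and DAXX-ATRX chaperones, often where nucleosomes turn over. H3K4me3 marks the starts of active genes and H3K36me3 follows elongating RNA polymerase II along their bodies.

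The 67 genes lay in 8 blocks more than 100 kb apart. Chromosome 13 held the 55 Hist1 genes: 54 lay in the Hist1 cluster, with 29 genes at chr13:23622919-23856283, 18 at chr13:21807632-21929399, 5 at chr13:22126982-22135545, and the pair Hist1h2ba and Hist1h2aa, and Hist1h2al stood away from it at chr13:51298057-51298434. Of the others, 9 Hist2 genes lay on chromosome 3, the pair Hist3h2ba and Hist3h2a on chromosome 11, and Hist4h4 at chr6:136752589-136752900. The median gene was 530 bp long, against 15427 bp for all protein-coding genes, and 64 of the 67 were at most 4 kb. Since 50 of the 67 shared the 1 kb flank with a neighbouring member, up to 5 of them were counted from a single peak, and the members are not independent of each other.

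The stem-loop is shown because it is a known mark of these genes' mRNAs and does not enter the rule. A paired stem with the arms GGNNCT and AGNNCC around the loop TTTN began within 200 bases of the end of the coding sequence in 58 of the 67 genes, 22 to 59 bases after it (median 32). The same search found it in 3 of the 22300 other protein-coding genes, 1 of them H2afx. It was found in 6 of 6 H1, 17 of 19 H2A, 13 of 18 H2B, 10 of 11 H3 and 12 of 13 H4 genes. The 4 forms below were carried by 36, 9, 8 and 2 genes, and are given from chr11:58762851-58762866 (+ strand), chr13:21807587-21807602 (- strand), chr13:21842019-21842034 (- strand) and chr13:21827306-21827321 (+ strand) of mm9, with the 2 arms of the stem in capitals.
Hist3h2ba: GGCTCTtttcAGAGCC
Hist1h2bl: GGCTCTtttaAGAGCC
Hist1h4k: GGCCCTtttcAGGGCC
Hist1h4j: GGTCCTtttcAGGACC
Only stems with fully paired arms were searched for, so the pairing in each form follows from the search. The 9 genes in which the pattern was not found were Hist1h2al, Hist1h2an, Hist1h2bp, Hist1h2bq, Hist1h2br, Hist1h3g, Hist1h4a, Hist2h2bb and Hist2h2be. The annotated coding spans of Hist1h2bp, Hist1h2bq, Hist1h2br and Hist2h2bb were 1549, 2072, 2072 and 8133 bp, against 381 bp for Hist1h2bl. The search began only after these long spans, so a stem-loop within them would have been missed.

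The 250 bases before the start were searched on both strands in the 60 genes that matched a RefSeq promoter sequence (assembly GRCm38.p6, placed on mm9 by exact match). The octamer ATTTGCAT, the element of OCT1 (Pou2f1) and other POU factors, stood in 14 of 60 (23.3%), against 1.60% of all 32851 RefSeq promoters of the same length. All 14 were H2A or H2B genes: 7 of 17 H2A and 7 of 16 H2B, and 0 of 27 H1, H3 and H4 genes. CCAAT was in 50 of 60 (83.3%, against 33.8% of all promoters) and in 3 of 12 H4 genes, and TATAAA in 29 of 60 (48.3%, against 12.4%). The letters of one motif did not overlap those of another in the pair printed next. This pair of H2B promoters is shown because both hold all the named motifs, in capitals on either strand, while the genes differed in the marks described below: Hist1h2bb (chr13:23838353-23838602, + strand) had an H3.3 peak in 15 of 16 libraries and Hist1h2ba (chr13:24026026-24026275, - strand), which makes the testis form TH2B, in 0 of 16.
Hist1h2bb: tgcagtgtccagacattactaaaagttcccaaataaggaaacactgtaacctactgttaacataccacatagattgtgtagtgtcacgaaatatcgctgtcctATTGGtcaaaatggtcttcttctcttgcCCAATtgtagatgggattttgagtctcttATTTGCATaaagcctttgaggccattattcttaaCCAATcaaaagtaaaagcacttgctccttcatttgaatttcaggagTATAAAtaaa
Hist1h2ba: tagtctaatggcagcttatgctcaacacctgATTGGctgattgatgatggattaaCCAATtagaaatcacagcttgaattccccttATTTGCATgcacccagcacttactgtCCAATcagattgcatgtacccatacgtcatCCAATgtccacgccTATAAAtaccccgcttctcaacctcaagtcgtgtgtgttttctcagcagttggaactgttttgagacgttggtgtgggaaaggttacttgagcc

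The share of members with an H3.3 peak was high in all but the cKit libraries. In D0, 63 of 67 had one (94.0%, 95% Wilson interval 85.6 to 97.7%), against 61.9% of all protein-coding genes and 28.4% of genes of at most 4 kb. Along the successful route D3 had 62 (all genes 57.3%), D6T- (60.6%), D9T- (58.3%) and D12S+ (50.2%) each had 64, and D16S+ (43.4%) and iPSCs (61.2%) each had 61, while ESD3 had 57 (52.1%). Among the unsuccessful fractions, D6T+ had 62 (53.1%), and D9T+ (55%), D12S- (63.5%) and D16S- (56.7%) each had 64. Over these 12 libraries the members' share thus moved between 85.1% in ESD3 and 95.5%, with counting intervals that overlapped, while the share of all genes moved between 43.4 and 63.5%. Intervals here cover counting over genes only; with 1 library per group there is no replicate error and no test of a difference between groups.

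In the transdifferentiation series 62 of 67 members had an H3.3 peak in MEF (all genes 53.3%) and 65 in D4 (72.1%), the largest count of the 16 libraries. The count was 47 in cKit- (70.1%, interval 58.3 to 79.8%; all genes 31.8%) and 24 in cKit+ (35.8%, interval 25.4 to 47.8%; all genes 33.2%). The members' share in cKit+ was close to that of all genes but 4 times that of genes of at most 4 kb (8.95%). The cKit libraries stood apart as a whole: they had 28076 and 25637 peaks against up to 108179 (D4), and cKit+ had 1.65% of its tags in peaks, the lowest of the H3.3 libraries, at the largest depth (91.8 M tags). Hematopoietic marker genes with an H3.3 peak were 4 of 8 in cKit+ and 4 of 8 in MEF, so this list did not set the cKit+ library apart. The part of the low number of peaks in the members' count was not tested.

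**Figure D1:**
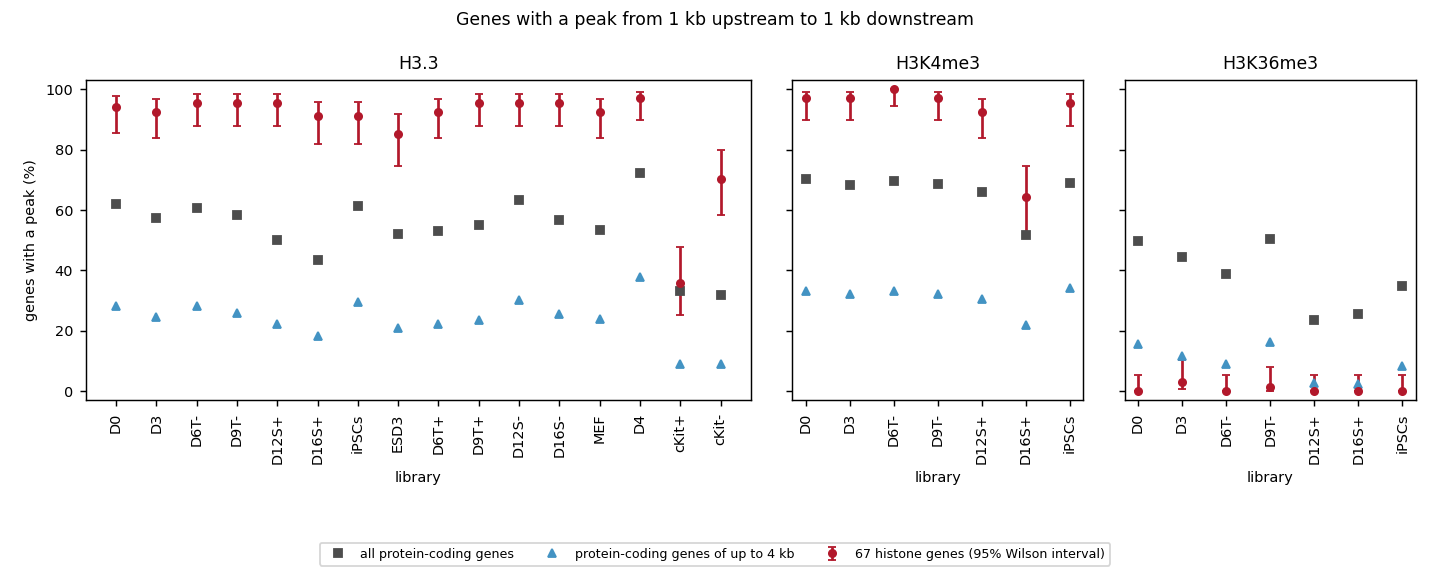
Share of genes (percent) with a peak from 1 kb upstream to 1 kb downstream in each of the 30 libraries, for the 67 replication-dependent histone genes (red points with 95% Wilson intervals), all protein-coding genes (grey squares) and those of at most 4 kb (blue triangles). For the histone genes, H3.3 sits at 85.1% or above in every library but cKit+ and cKit-, H3K4me3 at 92.5% or above except in D16S+ (64.2%), and H3K36me3 at 0 to 2.99%.

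H3K4me3 was at nearly every member. D0 (97.0%; all genes 70.2%), D3 (68.2%) and D9T- (68.6%) each had it at 65 of 67, D6T- at all 67 (69.7%), iPSCs at 64 (69%) and D12S+ at 62 (66%). The exception was D16S+, with 43 (64.2%, interval 52.2 to 74.6%; all genes 51.6%). D16S+ was the shallowest H3K4me3 library, with 15.8 M tags of which 3.71% lay in peaks, and the lowest in both the members and all genes. H3.3 and H3K4me3 were both present at 63, 62, 64, 64, 61, 41 and 58 of the 67 genes from D0 to iPSCs, which is 61.2 to 95.5% of them, against 34.9 to 58.1% of all genes.

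H3K36me3 was nearly absent. No member had a peak in D0, D6T-, D12S+, D16S+ or iPSCs, 2 had one in D3 and 1 in D9T-. A count of 0 of 67 allows a share of up to 4.48% if set at 3 genes, and its 95% Wilson interval ends at 5.42%. Among all genes the share was 49.7% in D0, 50.3% in D9T-, 44.6% in D3, 38.8% in D6T-, 34.7% in iPSCs, 25.6% in D16S+ and 23.5% in D12S+. Long genes take part in those shares, so the closer background is genes of at most 4 kb that held an H3K4me3 peak in the same cells: 35.9% of these had H3K36me3 in D9T-, 34.1% in D0, 26.2% in D3, 21.9% in iPSCs, 19.6% in D6T-, 6.65% in D12S+ and 4.55% in D16S+. In D16S+ that background lay between the 2 limits of a 0 count, and a difference was not detectable at this number of genes. In the other libraries it lay above the upper end of the interval (10.2% in D3, 7.98% in D9T-, and as above where the count was 0), by a small margin in D12S+. The interval takes the 67 genes as independent, although 50 of them share a flank with a neighbouring member, so it is likely too narrow. The background also held members, 59 of its 1534 genes in D12S+, and was not matched to the members in length within 4 kb. Reads that fit more than a single place had been removed by the authors. A median of 72.6% of the 50-base stretches of a member's coding sequence occurred elsewhere in mm9. The part of this in the H3K36me3 counts was not tested. No conclusion is drawn from the margin in D12S+.

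None of the few H3K36me3 peaks reached a member's coding sequence. At Hist3h2a in D3 the peak (chr11:58770479-58770979) lay in the flank, 1.85 kb from the coding sequence. Hist1h2bc, an H2B gene with a long annotated span of 8290 bp, had 2 in D3, 6.89 and 8.48 kb away, and Hist1h2be, with a span of 37383 bp, had 1 in D9T-, 15.6 kb away. These peaks held 6.85 to 12.1 tags per 10 M tags of the library.

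The genes whose products act on the histone genes carried H3K36me3 more often. Of 18 regulators of histone gene transcription and of the 3' end, 10 (D12S+) to 18 (D0 and D9T-) had an H3K36me3 peak, 16 to 18 had H3K4me3, and 5 (cKit-) to 18 had H3.3. Npat, the coactivator of the histone locus body, had H3.3 in 14 of 16 and H3K36me3 in 7 of 7 libraries, and Slbp, whose protein binds the stem-loop, in 15 of 16 and 6 of 7. Casp8ap2 (FLASH), which takes part in 3'-end processing, had H3K36me3 in 7 of 7. Cstf2, a subunit of the cleavage stimulation factor, had H3.3 in 1 of 16 only. These genes are longer than the members (up to 137.5 kb for Pou2f1), and the shares are given as a description.

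The replication-independent histone genes also differed from the members in H3K36me3. Of the 10 found, 4 (cKit+) to 10 had H3.3, 8 to 10 had H3K4me3 and 3 to 9 (median 6) had H3K36me3. H3f3a and H3f3b, which encode H3.3 itself, had H3.3 in 16 of 16 libraries each, and H3K36me3 in 7 and 4 of 7. H2afx, the source of the DNA damage form H2A.X, is 1.36 kb long and had H3K36me3 in 4 of 7, and H2afz, which encodes H2A.Z, in 2 of 7. H1fx, of 1.06 kb, had it in 0 of 7, and H2afy, of 62.7 kb, in 7 of 7. All of these genes are longer than the median member (530 bp), and the part of length in the difference was not tested. Behind the coding sequence of H2afx the search above also found the stem-loop, so that mark does not set it apart from the members.

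**Figure D2:**
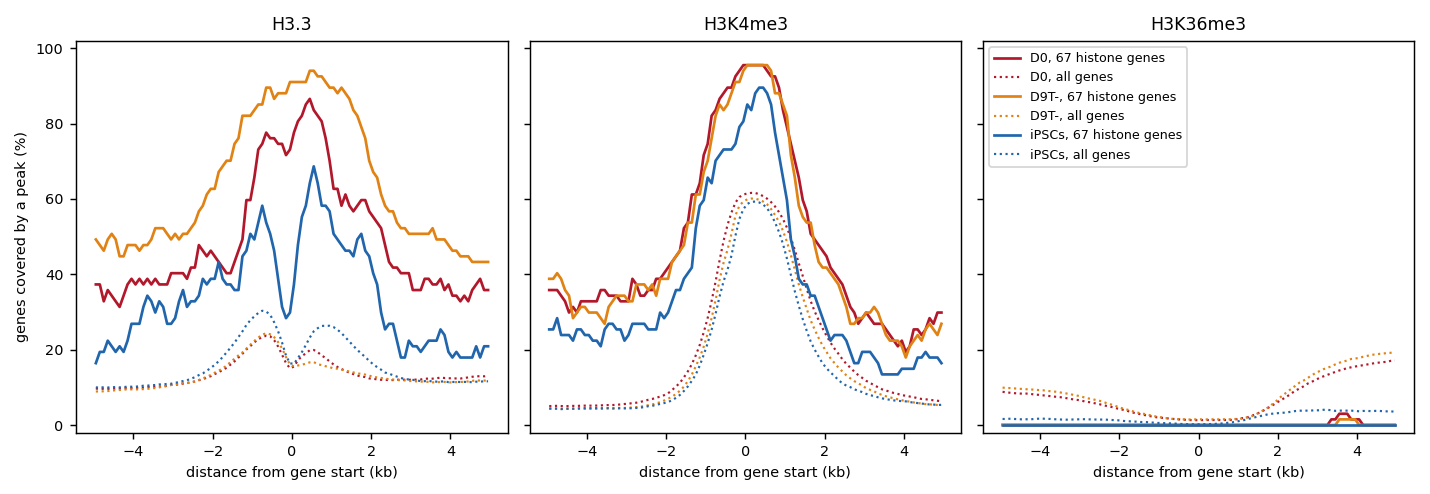
Share of genes (percent) covered by a peak at each distance in kb from the annotated start, for the 67 histone genes (solid lines) and all protein-coding genes (dotted lines) in D0, D9T- and iPSCs, with 1 panel for each of H3.3, H3K4me3 and H3K36me3. The H3.3 share of the histone genes is highest 450 bp after the start in D9T- (94.0%) and 550 bp after it in iPSCs (68.7%), where the line dips at the start.

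H3.3 covered the start and the short body of the members. At the start itself a peak lay over 77.6% of them in D0, 91.0% in D9T- and 37.3% in iPSCs, while all genes stood at 15.5, 15.5 and 16.3%. In D0 and iPSCs the profile had a dip at the start with a maximum on either side. The share was highest 450 to 550 bp after the start: 86.6% in D0, 94.0% in D9T- and 68.7% in iPSCs. The coding sequence ended a median of 434 bp after the start, before 450 bp in 45 of the 67 genes, so that this maximum lay at or past its end in most of them. Near 4 kb after the start it was 34.3, 46.3 and 17.9%, against 12.4, 11.3 and 11.4% of all genes; other members often lie within that distance. H3K4me3 covered the start of 95.5% of members in D0 and 85.1% in iPSCs, against 61.5 and 58.7% of all genes.

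To compare levels, the tags of each peak, normalized by the authors to 10 M per library, were apportioned to the window from 1 kb before to 1 kb after each start, which is equally long for all genes. In 2 members, Hist1h2be and Hist2h3c1, the coding sequence begins over 1 kb after the annotated start, so this window does not hold its beginning. The median H3.3 level of the 67 members in this window was 28.7 tags per 10 M in D0 and 16.9 in D3. It was 33.8 in D6T- and 21.2 in D6T+, 43.9 in D9T- and 37.5 in D9T+, 27.9 in D12S+ and 43.6 in D12S-, and 16.8 in D16S+ and 35.1 in D16S-. In iPSCs it was 12.9 and in ESD3 10.4, and in the other series 25.8 in MEF, 36.6 in D4, 0 in cKit+ and 9.59 in cKit-. The level was thus highest on day 9 and in D12S-, and lowest, the cKit libraries aside, in the pluripotent cells.

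Ranked among all protein-coding genes of the same library, the median member stood at percentile 96.6 in D0, 97.7 and 99.2 in D6T- and D9T-, 98.5 and 95.5 in D12S+ and D16S+, and 78.6 in iPSCs. ESD3, with 91.5, lay between. Genes without a level share the low ranks, and 23.4% of all genes had one in ESD3, against 45.9% in iPSCs. The part of this in the ranks was not tested. Set against the median of genes with a peak there, the members' median was 1.25 times as high in ESD3, 1.07 in iPSCs and 2.40 in D0. In the unsuccessful fractions the median member stood at percentile 96.5 (D6T+), 99.3 (D9T+), 99.0 (D12S-) and 98.5 (D16S-). In the other series it stood at 97.1 in MEF, 94.0 in D4 and 97.7 in cKit-. In cKit+ the median member had no level, and its 46.3 is the tied rank of all genes at 0. There 20 of 67 members (29.9%) had a peak within 1 kb of the start, against 7.31% of all genes, and 17 were in the top 5%. The blocks were not alike in percentile between D0 and iPSCs. The median percentile of the block of 29 Hist1 genes went from 95.5 to 73.5, and that of the 9 Hist2 genes from 96.3 to 92.3. Of the 67 members, 40 were in the top 5% of genes in D0, 58 in D9T-, 22 in ESD3 and 7 in iPSCs. H3K4me3 ranked lower: the median member was between percentile 60.4 (D16S+) and 72.7 (iPSCs). Input tags over the members' H3.3 peaks were 1.03 (ESD3) to 1.58 (cKit-) times as dense as over all H3.3 peaks, and after input was subtracted the percentiles of D9T+ and iPSCs were 99.2 and 77.9.

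**Figure D3:**
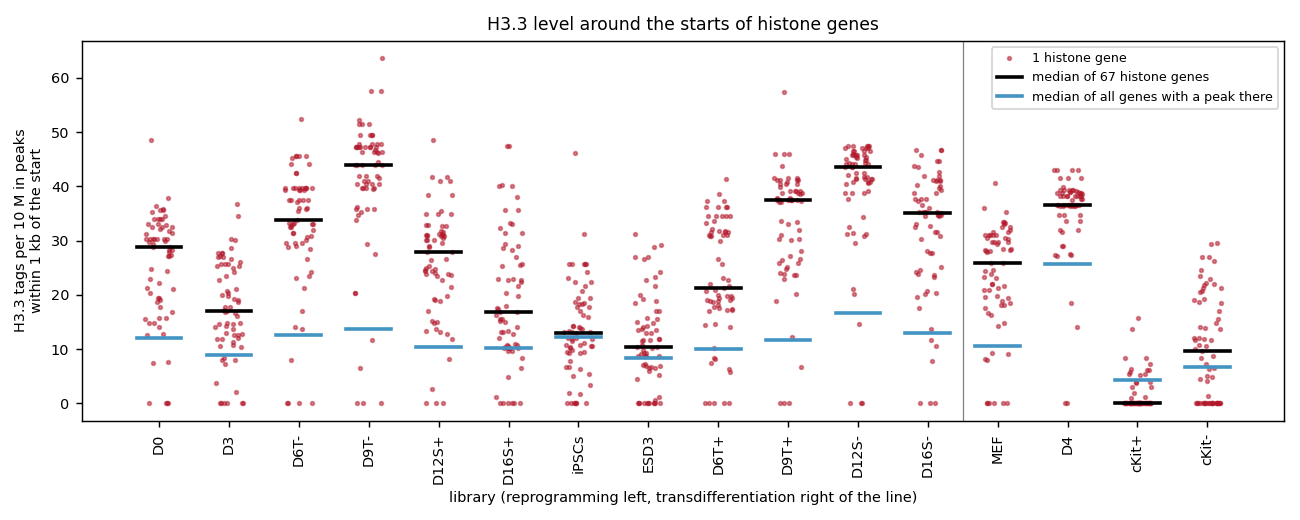
H3.3 level in the window 1 kb either side of the start, in tags per 10 M, for each histone gene (red points) in each of the 16 libraries, with the median of the 67 histone genes (black lines) and of all genes with a peak there (blue lines). The histone genes' median is 43.9 in D9T-, 12.9 in iPSCs and 0 in cKit+.

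The level was lower in iPSCs than in D9T- at every member measured in both. The 59 members with a level in both libraries were all higher in D9T-, with a median ratio of 3.36, whereas the median ratio over all genes was 1.15. Summing whole peaks instead gave a median ratio of 6.84 over members, which lay under 36 separate peaks in D9T- and 63 in iPSCs. Counted by a 2-fold limit, a gene being counted as above also where the other library had no level, 50 of 65 members (76.9%) were above in D9T-, against 25.7% of all genes, and 1 of 65 was above in iPSCs, against 36.7%. That gene was Hist3h2ba, an H2B gene whose level was 0 in D9T- and 25.8 in iPSCs.

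The same direction held from D0 to iPSCs, less strongly. The median ratio of D0 to iPSCs was 1.80 over 59 members (51 higher in D0 and 8 higher in iPSCs) and 0.988 over all genes. At least 2-fold above in D0 were 29 of 64 members (45.3%), against 25.8% of all genes, and in iPSCs 2 of 64, Hist3h2ba and Hist1h2al, against 36.8%. The median ratio of D0 to D9T- was 0.672 over 62 members, 61 of them higher in D9T-, and 0.866 over all genes: 18 of 65 members (27.7%) were at least 2-fold above in D9T-, near the 30.1% of all genes, and 1, Hist3h2ba, in D0, against 30.7%. Peaks were seldom lost: of the 63 members with an H3.3 peak in D0, 3 (4.76%; Hist1h2ab, Hist1h3b and Hist1h4d) had none in iPSCs, against 15.4% of all genes, and of the 4 without one, Hist1h2al gained one, against 23.2%. The iPSCs and ESD3 libraries, 2 pluripotent samples, gave a median ratio of 1.00 over 52 members, with 26 higher in each, and 1.61 over all genes.

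The successful and unsuccessful fractions of a day differed in the same direction over members as over all genes. The median ratio of D6T- to D6T+ was 1.28 over members and 1.38 over all genes, and that of D9T- to D9T+ was 1.21 and 1.30. On the later days it was lower than 1: 0.659 over members and 0.561 over all genes for D12S+ to D12S-, and 0.578 and 0.702 for D16S+ to D16S-. By the 2-fold limit, 11 of 64 members (17.2%) were above in D6T- (all genes 51.3%) and 1, the testis form Hist1h1t, in D6T+ (12.8%). On day 9, Hist1h2be (at its distant annotated start; around the coding sequence it had 46.7 in D9T- and 37.2 in D9T+) and Hist1h2al were above in D9T- (2 of 65, all genes 40.1%) and Hist3h2ba in D9T+ (15.5%). On day 12 none of 64 was above in D12S+ (5.46%) and 13 (20.3%) were above in D12S- (64.4%). On day 16, 1 of 65, Hist3h2ba, was above in D16S+ (13.9%) and 30 (46.2%) in D16S- (59.6%). The members' shares were below those of all genes in each of these comparisons. A gene with a level in only 1 of the 2 fractions also counted as above, and such genes were commoner among all genes. On day 6, 61 of 64 members had a level in both fractions, against 5277 of 9491 of all genes. The part of such genes in the shares was not tested. Depth and the share of tags in peaks differed between the fractions as well. Their part in the ratios was not tested.

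In the transdifferentiation series the level was higher in D4 than in MEF at 59 of the 61 members that had a level in both, with a median ratio of MEF to D4 of 0.722, against 0.396 over all genes. At least 2-fold above in D4 were 13 of 65 members (20%), against 80.8% of all genes, and 0 in MEF, against 1.31%. Genes with a level in only 1 of these libraries counted as well: 61 of 65 members had a level in both, against 7179 of 13774 of all genes. D4 had 37.2% of its tags in peaks, the most of the H3.3 libraries. From D4 to cKit+ the ratio was 7.09 over the 20 members with a level in both, and 7.25 over all genes.

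**Figure D4:**
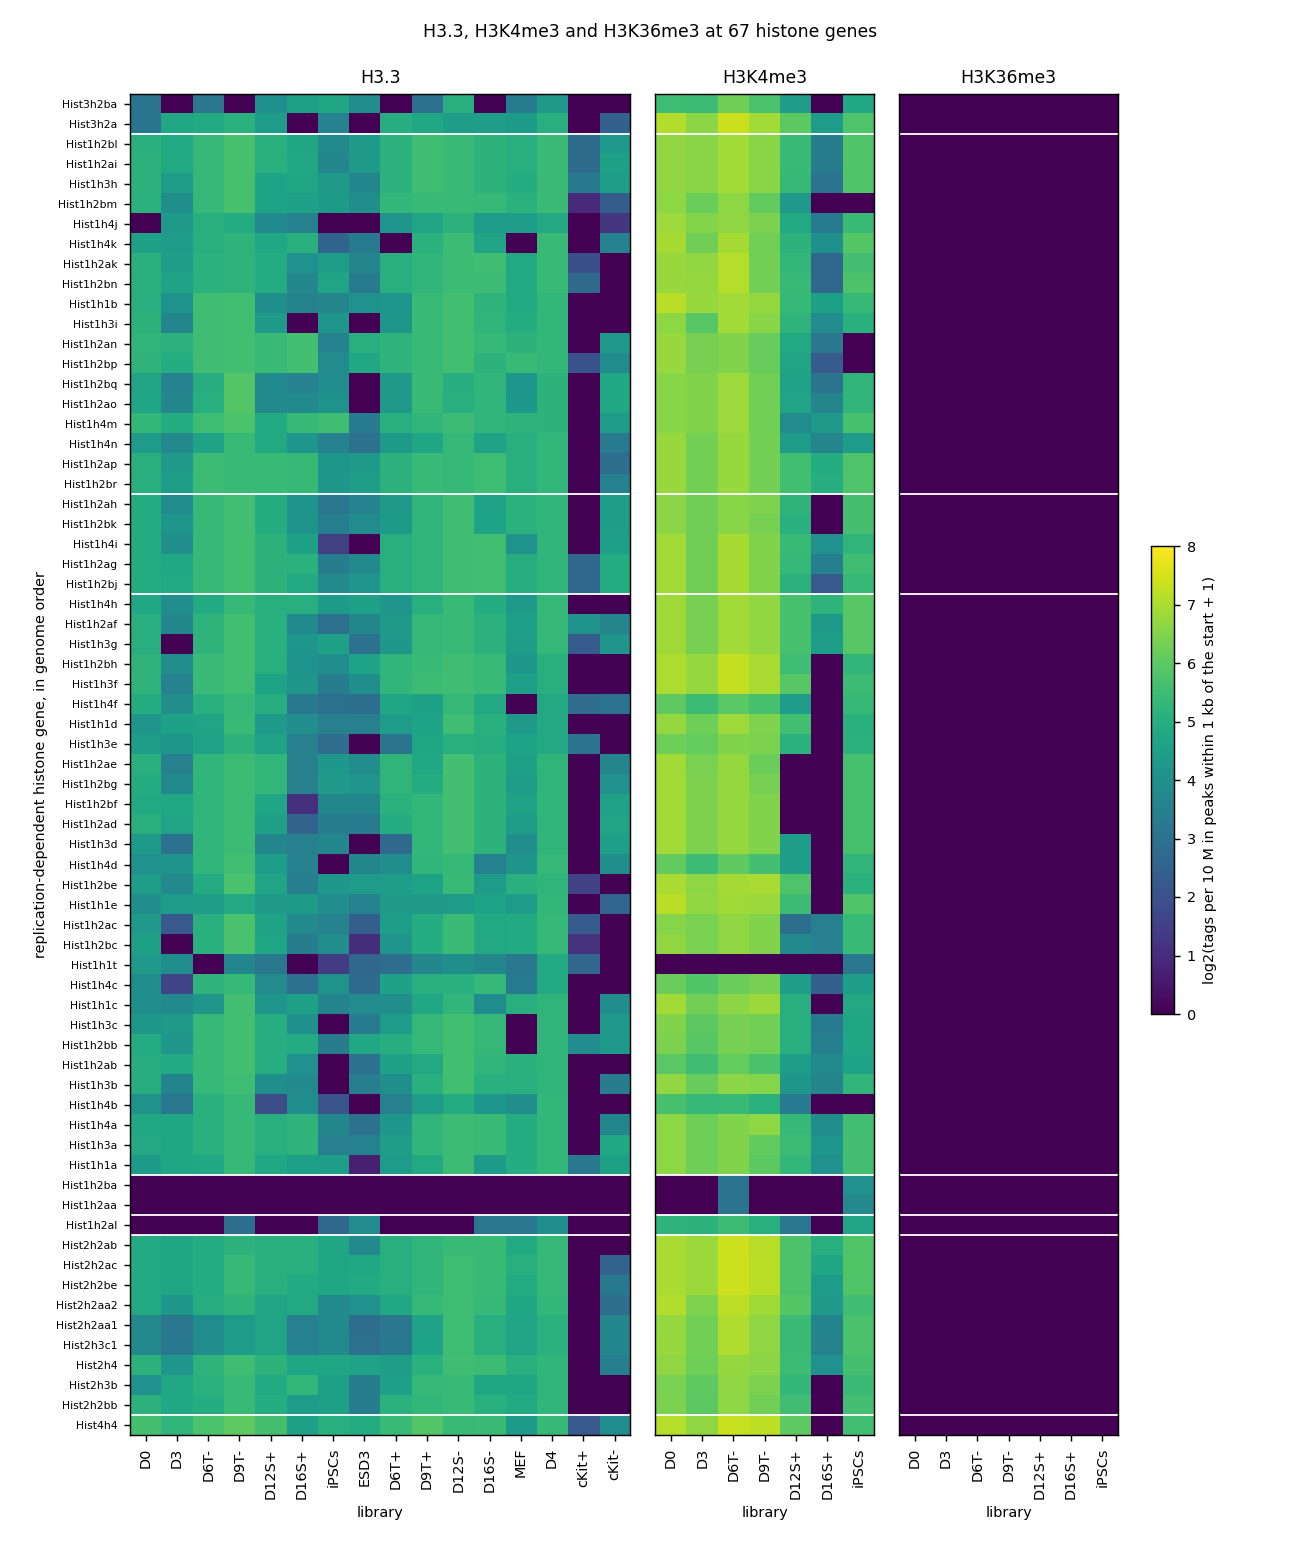
Level in the window 1 kb either side of the start for each of the 67 histone genes (rows, in genome order, with white lines between blocks) in each library (columns), for H3.3, H3K4me3 and H3K36me3, as log2 of tags per 10 M plus 1, where brighter means higher and the darkest colour is 0. Hist1h2ba and Hist1h2aa are at 0 in all 16 H3.3 columns, and the H3K36me3 panel is at 0 throughout, since its few peaks lay outside this window.

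Over the libraries as a whole the families had much the same H3.3 pattern. The median over libraries of the families' median percentile in the start window was 94.5 for H1, 97.4 for H2A, 97.9 for H2B, 96.1 for H3 and 96.3 for H4. In iPSCs the families' medians lay between 73.6 (H2A and H4) and 80.8 (H2B), and in D9T- between 98.7 (H1 and H4) and 99.5 (H2B). Some single libraries spread more widely. In D0 the 6 H1 genes stood at 88.0, where the other families lay between 95.5 and 97.4. In cKit- H1 stood at 69.6, against 95.2 to 98.8 for the others. ESD3 ran from 85.5 (H4) to 96.4 (H2B). The families share peaks, and no difference between them was tested.

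The 11 genes for H3 encode the forms that H3.3 takes the place of. All 11 had an H3.3 peak in 10 of the 16 libraries, and the lowest counts were 8 of 11 in ESD3, 7 in cKit- and 3 in cKit+. Hist1h3h had H3.3 in all 16, with levels around the start of 34.0 in D0, 19.9 in D3, 39.2 in D6T-, 49.5 in D9T-, 24.0 and 25.7 in D12S+ and D16S+, 18.5 in iPSCs and 11.6 in ESD3. In the unsuccessful fractions D6T+, D9T+, D12S- and D16S- its levels were 34.5, 46.0, 41.3 and 34.7, and in MEF, D4, cKit+ and cKit- 30.3, 42.9, 8.35 and 21.2. Its level was thus lower in the pluripotent cells than in D9T- with a peak present throughout.

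The other H3 genes differed mainly in the pluripotent and cKit cells. Hist1h3b and Hist1h3c stood at 44.5 and 47.9 in D9T- and at 0 in iPSCs, and in ESD3 at 9.7 and 9.1. Hist1h3d, Hist1h3e and Hist1h3i stood at 0 in ESD3, and Hist1h3i also in D16S+, from 43.9, 34.7 and 46.3 in D9T-. Hist1h3a, Hist1h3f and Hist1h3g had 39.6, 47.3 and 47.2 in D9T- and 10.3, 9.3 and 23.1 in iPSCs. The pair of Hist2 genes for H3, Hist2h3c1 and Hist2h3b, had 20.3 and 41.0 in D9T- and 13.2 and 22.3 in iPSCs, but the coding sequence of Hist2h3c1 begins 1.197 kb after its annotated start, outside the window. Around the start of its coding sequence the level was 34.4 in D0, 35.0 in D9T- and 22.2 in iPSCs.

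Among linker histones, Hist1h1a and Hist1h1d had an H3.3 peak in all 16 libraries, and Hist1h1t and Hist1h1b in 14, the fewest of the family. By summed tag count Hist1h1a ranked above Hist1h1d and Hist1h1t below Hist1h1b. The level of Hist1h1a was 19.4 in D0, 39.6 in D9T- and 20.7 in iPSCs. Hist1h1t, which encodes a testis-specific H1, had 18.6 in D0, 0 in D6T-, 11.6 in D9T-, 0 in D16S+, 1.7 in iPSCs and 5.2 in ESD3. Its start held no H3K4me3 in D0, D3, D6T-, D9T-, D12S+ or D16S+, and 8.0 tags per 10 M in iPSCs, while Hist1h1b, a somatic H1 gene, had 22.5 to 143.7 over the 7 libraries.

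For H4, Hist4h4, the single gene on chromosome 6, had the highest level of all members in 7 of the H3.3 libraries: 48.6 in D0, 36.8 in D3, 52.5 and 41.4 in D6T- and D6T+, 63.7 and 57.3 in D9T- and D9T+, and 48.6 in D12S+. It had 31.2 in iPSCs and 29.1 in ESD3, and it shares its peaks with no other member. In D12S-, D16S- and D4 the same peak also reached H2afj, a replication-independent H2A gene beside it. Hist1h4j, Hist1h4k and Hist1h4b had an H3.3 peak in 13 of 16 libraries, the fewest of the family, and Hist1h4j, with the lowest summed tag count of them, had 0 in D0, 29.4 in D9T- and 0 in iPSCs and ESD3. For H2A, Hist1h2ag had 30.2 in D0, 47.2 in D9T-, 9.5 in iPSCs and 12.9 in ESD3. For H2B, the annotated start of Hist1h2be lies 35.2 kb before its coding sequence, so its level was taken around the start of the coding sequence, where it was 31.6 in D0, 46.7 in D9T- and 25.97 in iPSCs.

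Hist1h2ba and Hist1h2aa, which lie next to each other at the edge of the cluster and encode the testis forms TH2B and TH2A, had no H3.3 peak in any of the 16 libraries. Each had H3K4me3 in 2 of 7 libraries, D6T- and iPSCs, where the start windows held 7.3 tags per 10 M in D6T- for both and 15.7 and 12.7 in iPSCs. Both promoter windows were thus marked weakly by H3K4me3 without a called H3.3 peak. Hist1h2bb, whose promoter was printed beside that of Hist1h2ba above, had H3.3 levels of 29.4 in D0, 47.9 in D9T-, 9.5 in iPSCs and 26.5 in ESD3, and H3K4me3 levels of 84.5 in D0 and 25.6 in iPSCs. In the window of coding sequence and 1 kb either side, 5.91% of the 50-base stretches of Hist1h2ba and 6.07% of those of Hist1h2aa also stood elsewhere in the genome, against 14.3% for Hist1h2bb.

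Of the rest, Hist1h2al, away from the cluster, had H3.3 in 6 of 16 libraries and Hist3h2ba in 10. Hist3h2ba went against the course of the others, with 0 in D3 and D9T-, 7.4 and 7.9 in D0 and D6T-, 15.2 in D12S+, 22.3 in D16S+, 25.8 in iPSCs and 14.1 in ESD3. It was chosen after its values were seen. Its neighbour Hist3h2a, 1 of the H2A genes, had 7.6 in D0, 33.7 in D9T-, 0 in D16S+, 10.6 in iPSCs and 0 in ESD3. At the other end 57 members had H3.3 in 14 or more libraries, 13 of them in all 16, and 42 had H3K4me3 in all 7. The share of all genes with a peak in as many libraries was not computed, so these counts are a description only.

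The histone genes resemble each other, and reads that fit more than a single place were removed by the authors, which limits what can be counted. Of the 50-base stretches of a member's coding sequence a median of 72.6% occurred elsewhere in mm9, and 50 members were above 50%. With 1 kb on either side included the median was 16.7%, and 9 members were above 50%, among them Hist1h2bq, Hist1h2ao, Hist2h2aa1 and Hist2h3c1. Those 9 had H3.3 in 14 to 15 libraries, and the other 58 in 0 to 16 (median 15). Levels of these near-identical genes are uncertain.

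**Figure D5:**
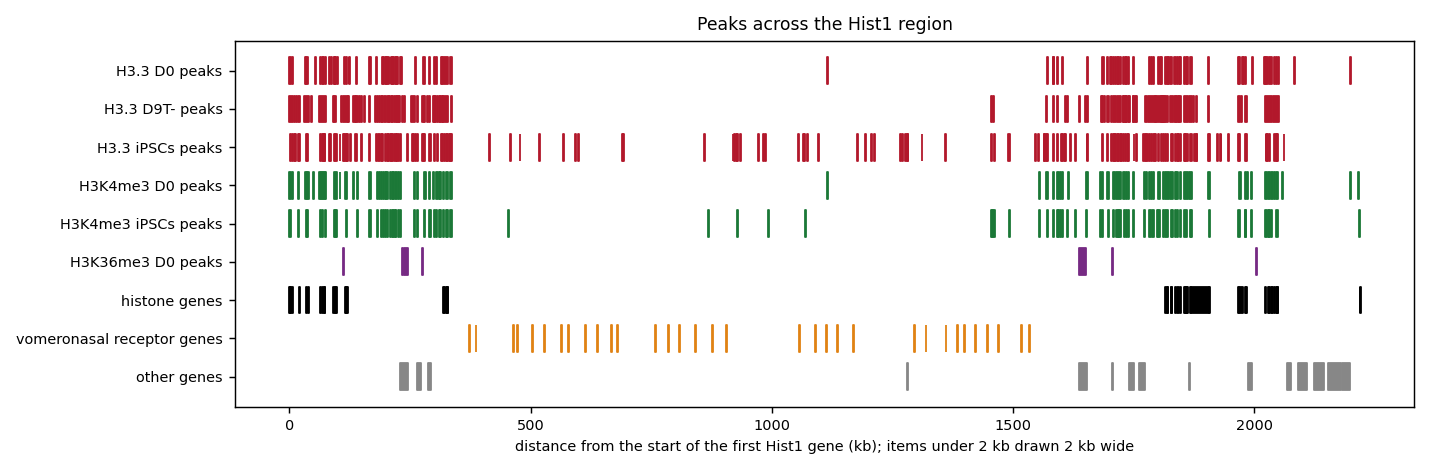
Map of the Hist1 region of chromosome 13, with distance in kb from the start of its first gene, showing the 54 histone genes, 33 vomeronasal receptor genes and other genes, and the peaks of H3.3 in D0, D9T- and iPSCs, of H3K4me3 in D0 and iPSCs and of H3K36me3 in D0, with items under 2 kb drawn 2 kb wide. H3.3 and H3K4me3 peaks lie over the histone genes and over stretches next to them, and H3.3 peaks stand among the vomeronasal receptor genes mostly in iPSCs.

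At the scale of the cluster the blocks differed. Of the block of 29 genes, H3.3 peaks covered 24.6% of the bases in D0, 33.7% in D9T-, 17.1% in iPSCs, 10.7% in ESD3, 41.7% in D4 and 3.85% in cKit+. The block of 5 was covered whole in D0, D9T- and D4 and to 32.6% in iPSCs. The block of 18 was covered to 27.7% in D0, 23.9% in D3, 45.0% in D9T-, 25.01% in iPSCs and 13.6% in ESD3, so its coverage in D0 and iPSCs was nearly equal. H3.3 lay at 45 to 52 of the 54 members of the region in the 12 reprogramming libraries.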

How the data were processed

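The authors sequenced ChIP libraries of H3.3, H3K4me3 and H3K36me3, mapped the reads to mm9 with STAR (at most 2 mismatches, reads fitting more than a single locus removed) and called peaks for each library against an input with HOMER findPeaks in histone style. Versions are not given in the sources used here. The deposited normalized tag counts are a signal: tags in a peak scaled by the authors to 10 M tags per library, not per length and with no input subtracted. Per the file headers, the deposited fold over input is a ratio of tags, with a lowest value of 2.0 for H3.3 and 4.0 for both methylations. The 16 inputs were not analysed on their own, and columns of total and control tags were not used. Input tags of a peak were taken as its normalized tag count divided by its fold over input.

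Genes and coding sequences came from GENCODE vM1 (chromosomes 1 to 19, X and Y), and a peak counted for a gene when it overlapped it with 1 kb on either side. A gene's summed tag count adds whole peaks. The level around the start apportions each peak's tags by length to 1 kb either side of the annotated start. Depth was 18.7 to 91.8 M tags for H3.3, 15.8 to 35.4 M for H3K4me3 and 13.2 to 25.4 M for H3K36me3, and the share of tags in peaks ran from 1.07 to 42.4% over the 30 libraries. With 1 library per group no test between groups was possible: shares have 95% Wilson intervals over genes, and ratios are given beside those of all genes. The limit that a count of 0 allows was set at 3 genes of 67.

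The members, lists and comparisons were chosen with earlier results of these data known. Named genes were the H3 genes, the members of each other family with H3.3 peaks in the most and the fewest libraries (ties broken by summed tags), members whose H3.3 peak appeared or went between D0 and D3 and the pluripotent cells (0 of each), members with no H3K4me3 peak in any library (0), and up to 4 genes of each list. Others named were chosen after their values were seen. Of 11 replication-independent histone genes listed, 10 were found, and 18 of 18 regulators. As a check of cell type, fibroblast genes with an H3.3 peak were 9 of 9 in D0 and MEF, and pluripotency genes were 3 of 9 in D0 and 9 of 9 in iPSCs. Scripts ran in Python 3.11.15 with numpy 2.4.6, pandas 2.3.3, scipy 1.17.1 and matplotlib 3.10.9, and the overlap code was tested on simulated data. Alternatives covered the window, the peaks used, the overlap required, the normalization and the members and libraries included.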

Additional observations from a re-analysis of the deposited data

Results flagged for a closer look

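The ratio of the successful to the unsuccessful fraction, on the log2 scale and in the window 1 kb either side of the start, lay on opposite sides of 0 on the early and the late days. Over the members its median was 0.35 on day 6 (D6T- over D6T+) and 0.27 on day 9 (D9T- over D9T+), and -0.60 on day 12 (D12S+ over D12S-) and -0.79 on day 16 (D16S+ over D16S-). Over all genes with a level in both libraries the same medians were 0.46, 0.38, -0.83 and -0.51, so the change of side was not particular to the histone genes. The sort marker changes with it, Thy-1 on the early days and SSEA-1 on the late ones, so day and marker cannot be told apart. The difference between days was not tested, since each fraction is 1 library.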

How the results depend on the processing

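The alternatives below were computed for the members only, so their shares have no share of all genes beside them. The median share of members with an H3.3 peak over 16 libraries was 93.3%. It was 82.1% with equal numbers of top-scoring peaks, 33.6% where peaks had to reach fold 4 over input (which leaves no member in MEF, cKit+ and cKit-), 70.9% with at least 50% of the window covered and 67.9% with the peak midpoint inside the window, and 89.6 to 94.8% under 8 other settings, among them the one without cKit+ and cKit-, added after seeing the data. The H3K4me3 share, 97.0%, was 82.1% with equal numbers of peaks, 83.6% at 50% coverage, 79.1% by midpoint and 100% for members alone in their window, and the H3K36me3 median was 0 in all 10 settings tried. The change in share from D0 to iPSCs, -2.99 percentage points (interval -12.9 to 6.68), was -17.9 for the gene body only, -47.8 at fold 4, -35.8 at 50% coverage and 16.4 by midpoint, where its sign differed. The D16S+ minus D16S- difference, -4.48 points (interval -14.2 to 4.74), was -25.4 for the gene body, -44.8 at 50% coverage and 8.96 by midpoint, again of the other sign. The iPSCs over D0 ratio of summed tags, 0.587, was 0.802 divided by the share of tags in peaks, 0.638 with equal peaks, 0.0814 at fold 4 and 0.494 with input subtracted. The median D9T- over iPSCs ratio from whole peaks, 6.84, was 3.36 around the start and 22.9 at fold 4, and 6.44 to 9.75 under 4 others (all chosen after seeing the data); D9T- stayed the higher. At fold 4 only 14 members kept a peak in D9T- and 14 in iPSCs. The 22.9 thus rests on at most 14 members, against 60 for the 6.84. The causes of these shifts were not tested. No paired analysis was possible because each group has 1 library, and for that reason leaving out a replicate was not possible either. D16S+ was the shallowest library of each mark (18.7 M tags for H3.3, 15.8 M for H3K4me3 and 13.2 M for H3K36me3), and the part of depth in its counts was not tested.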

Other observations

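Between the blocks of histone genes on chromosome 13 lie 33 vomeronasal receptor genes, which encode pheromone receptors of the olfactory system. None had an H3.3 peak in 15 of the 16 libraries, and 1 had one in iPSCs. H3.3 peaks in the 1162 kb that these genes span numbered 1 in D0, 0 in D3 and D6T-, 2 in D9T-, 14 in D12S+, 25 in D16S+, 37 in iPSCs and 27 in ESD3, while the unsuccessful fractions had 0 to 2. They covered 0.309% of the interval in D0 and 3.76% in iPSCs. Between D0 and iPSCs the levels of the 54 histone genes of the region went the other way. Their median around the start was 29.8 tags per 10 M in D0 and 11.7 in iPSCs. The order was not opposite over all libraries, since this median was 16.3 in D3 and 27.3 in D12S+. Over the whole genome the H3.3 peaks numbered 89727 in D0, 45922 in D12S+, 34062 in D16S+, 81867 in iPSCs and 52506 in ESD3. Whether the interval's counts were high or low for the genome was not computed. The interval was chosen after its values were seen and no test was made.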
